A study of Arabidopsis thaliana with 6 samples.

Results

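The genes described here are 7 members of the family of non-specific lipid transfer proteins (LTPs) of Arabidopsis thaliana: LTP1 (AT2G38540), LTP2 (AT2G38530), LTP3 (AT5G59320), LTP4 (AT5G59310), LTP5 (AT3G51600), LTP6 (AT3G08770) and LTP12 (AT3G51590). They were taken by locus code from a table of 20777 loci, and all 7 were present. They were chosen with their differences between the genotypes already known, so those differences are given as a description. Where calls of members in the fit over all loci are counted, the share or number of all loci called stands beside them. The calls are no independent evidence. No filter on low values was applied. The reference table of the TAIR10.1 assembly gave each locus the same name, with LTP1 listed there as LP1.

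Plants of the accession Col-0 were compared on ATH1 arrays, on which each transcript is read by a set of short oligonucleotide probes. The 35S::GRF5 plants overexpress GRF5, a growth-regulating transcription factor that promotes cell proliferation in leaves, from the strong viral 35S promoter, which is active in most tissues. The labels describe a single overexpressing line, so an effect of the transgene and one of its insertion cannot be told apart. Wild-type plants carried no transgene. All plants were at growth stage 1.03 and were raised in vitro on MS medium at 22 °C in days of 16 h light and 8 h dark. RNA came from the vegetative part of the seedlings, with 3 samples per genotype that the labels call biological repeats. The labels do not say how many plants went into a sample. GRF5 read 11.3, 11.4 and 12.1 log2 units in 35S::GRF5 replicates 1 to 3, against 4.73, 4.75 and 4.26 in wild type.

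Non-specific lipid transfer proteins are small, secreted proteins with a signal peptide and a cavity, held together by disulphide bridges, that binds fatty acids and other lipids. In leaves and stems many of them are made in the epidermis and lie in the cell wall, where they have been linked to the deposition of cutin and wax, the lipids of the cuticle. Other members respond to abscisic acid, drought, cold or pathogens. In the genome, LTP1 and LTP2 are neighbours on chromosome 2, LTP3 and LTP4 on chromosome 5, and LTP5 and LTP12 on chromosome 3. Each of these pairs had 0 annotated protein-coding genes between them, while LTP6 lay alone elsewhere on chromosome 3. The sequences of the members were not examined here, and the labels do not say which probes read which locus, so signal shared between similar members could not be separated.

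All 7 genes had a lower mean in 35S::GRF5 than in wild type, but the sizes ranged widely. LTP3 was lowest relative to wild type, at 0.332 of the wild-type level (a log2 difference of -1.59). LTP4 and LTP6 followed at 0.699 and 0.721, and LTP1, LTP2, LTP5 and LTP12 lay between 0.858 and 0.973. In limma's fit over all loci, with Benjamini-Hochberg adjustment and a threshold of 0.05, 1 of the 7 was called lower, LTP3. Of all loci, 0.486% were called lower, 0.284% higher and 0.77% in either direction. The 3 arrays of 35S::GRF5 lay wholly below the 3 of wild type for 4 of the 7 genes, LTP3, LTP4, LTP5 and LTP6, which was so for 8.45% of all loci. Of all loci, 43.8% had a negative difference. At an unadjusted p under 0.05 there were 3 members and 15.5% of all loci. Since the members were chosen on this contrast, nothing is read from these counts.

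**Figure D1:**
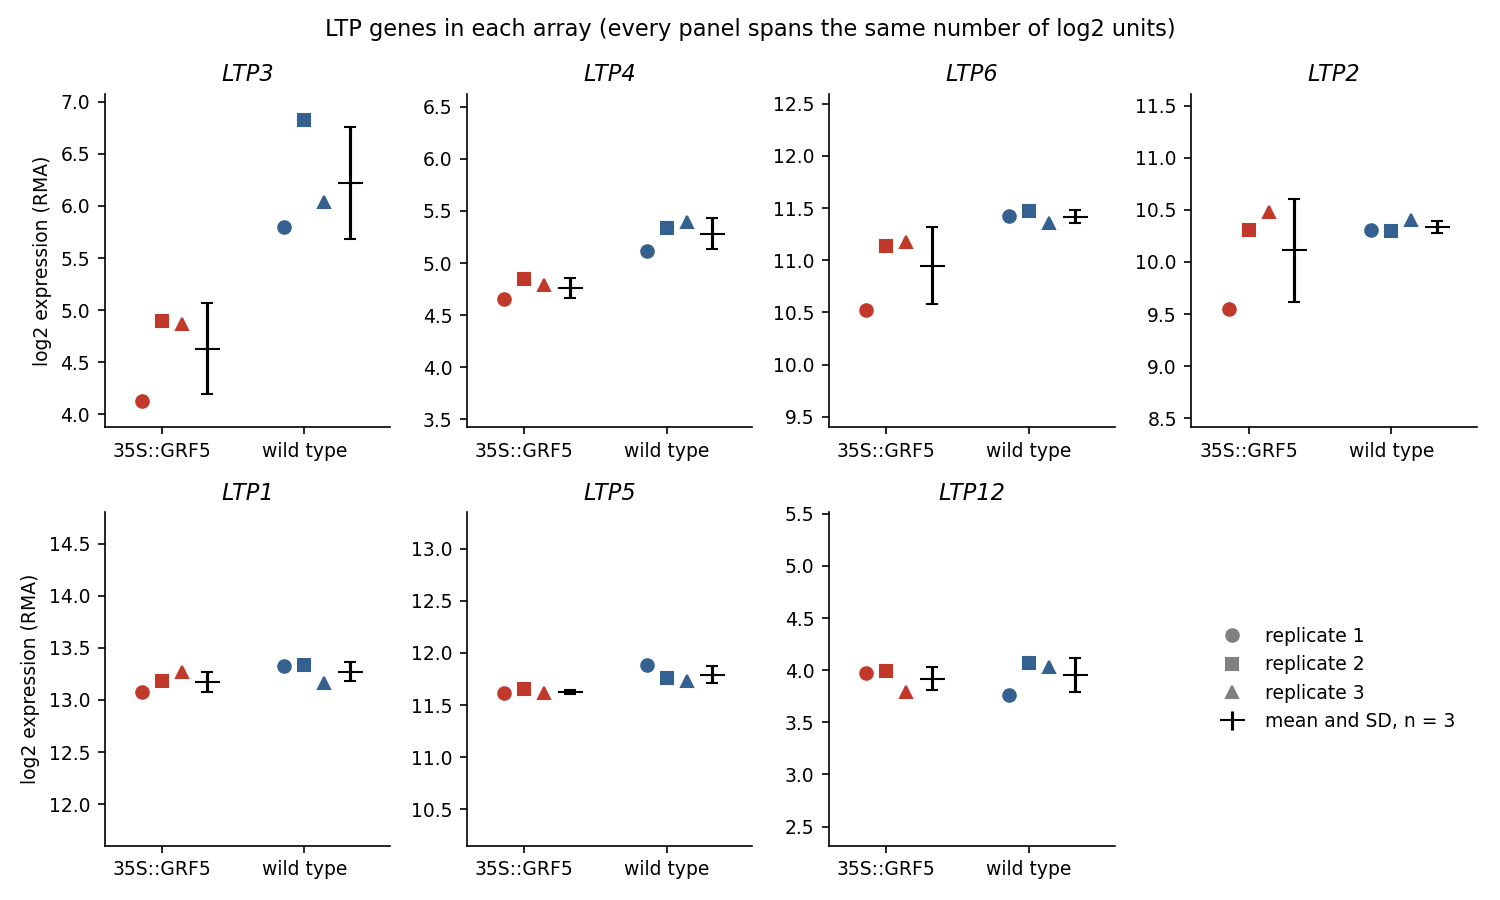
Log2 expression (RMA) of the 7 LTP genes in each array, with 35S::GRF5 in red on the left and wild type in blue on the right of each panel. Symbols mark the replicates, and black marks give the mean and SD of 3 arrays. The groups are fully apart for LTP3, LTP4, LTP6 and LTP5, and 35S::GRF5 replicate 1 lies below the other arrays of its group for LTP3, LTP6 and LTP2.

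LTP3 is known as a gene induced by abscisic acid and drought, and as a target of the transcription factor MYB96. It read 4.13, 4.89 and 4.87 log2 units in 35S::GRF5 replicates 1 to 3, against 5.80, 6.83 and 6.04 in wild type. The highest 35S::GRF5 array was therefore well below the lowest wild-type array. The means were 4.63 ± 0.43 in 35S::GRF5 and 6.22 ± 0.54 in wild type (SD, n = 3 each), and the difference was -1.59 log2 units, with a 95% interval from limma of -2.19 to -0.99. Both groups were spread out: the within-group SD of LTP3 was larger than that of 99.5% of all loci. The 35S::GRF5 mean lay in the low part of the table, with 29.2% of all loci below it, where signal and background cannot be separated with these values, so the size of the fold is uncertain.

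LTP4, the neighbour of LTP3, is also induced by abscisic acid. It read 4.66, 4.85 and 4.79 log2 units in 35S::GRF5 replicates 1 to 3, against 5.11, 5.34 and 5.39 in wild type. The groups did not overlap, and the arrays lay close together within each, with means of 4.76 ± 0.10 in 35S::GRF5 and 5.28 ± 0.15 in wild type (SD, n = 3 each). The difference was -0.52 log2 units (-0.75 to -0.28). As with LTP3, the 35S::GRF5 level was low: 31.2% of all loci had a lower mean in that group. The 2 neighbours thus shared a direction but differed in size. The wild-type array with the highest LTP3 value was replicate 2, and that with the highest LTP4 value was replicate 3.

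LTP6 read 10.5, 11.1 and 11.2 log2 units in 35S::GRF5 replicates 1 to 3, against 11.4, 11.5 and 11.4 in wild type. All 35S::GRF5 arrays were below all wild-type arrays, and replicate 1 was well below the other two. The means were 10.9 ± 0.37 in 35S::GRF5 and 11.4 ± 0.06 in wild type (SD, n = 3 each), a difference of -0.47 log2 units (-0.83 to -0.11). Without 35S::GRF5 replicate 1 the difference was -0.26.

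LTP1 and LTP2 are neighbours, and the LTP1 promoter is known for its activity in the epidermis. LTP1 read 13.1, 13.2 and 13.3 log2 units in 35S::GRF5 replicates 1 to 3, against 13.3, 13.3 and 13.2 in wild type. The groups overlapped, and the difference was -0.10 log2 units (-0.31 to 0.11). Its signal was near the top of the table, with 99.7% of all loci below the wild-type mean. LTP2 read 9.55, 10.3 and 10.5 log2 units in 35S::GRF5 replicates 1 to 3, against 10.3, 10.3 and 10.4 in wild type. Here the groups overlapped too, with 35S::GRF5 replicate 2 within and replicate 3 above the wild-type range. The difference of -0.22 log2 units (-0.67 to 0.23) rested on 35S::GRF5 replicate 1, and without that array it was 0.06.

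LTP5 is known from work on pollen tubes and the pistil. It read 11.61, 11.65 and 11.62 log2 units in 35S::GRF5 replicates 1 to 3, against 11.89, 11.76 and 11.73 in wild type. The groups did not overlap but were separated by little, with a difference of -0.17 log2 units (-0.36 to 0.03). LTP12, the neighbour of LTP5, is known for expression in the tapetum, the cell layer that feeds developing pollen. It read 3.97, 3.99 and 3.79 log2 units in 35S::GRF5 replicates 1 to 3, against 3.77, 4.07 and 4.03 in wild type. Its arrays overlapped, with a difference of -0.04 log2 units (-0.28 to 0.20). Only 15.1% of all loci had a lower wild-type mean than LTP12, so these values cannot be separated from background. Without 35S::GRF5 replicate 3 the difference of LTP12 was 0.02 and without wild type replicate 2 it was 0.02, against -0.13 without wild type replicate 1.

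**Figure D2:**
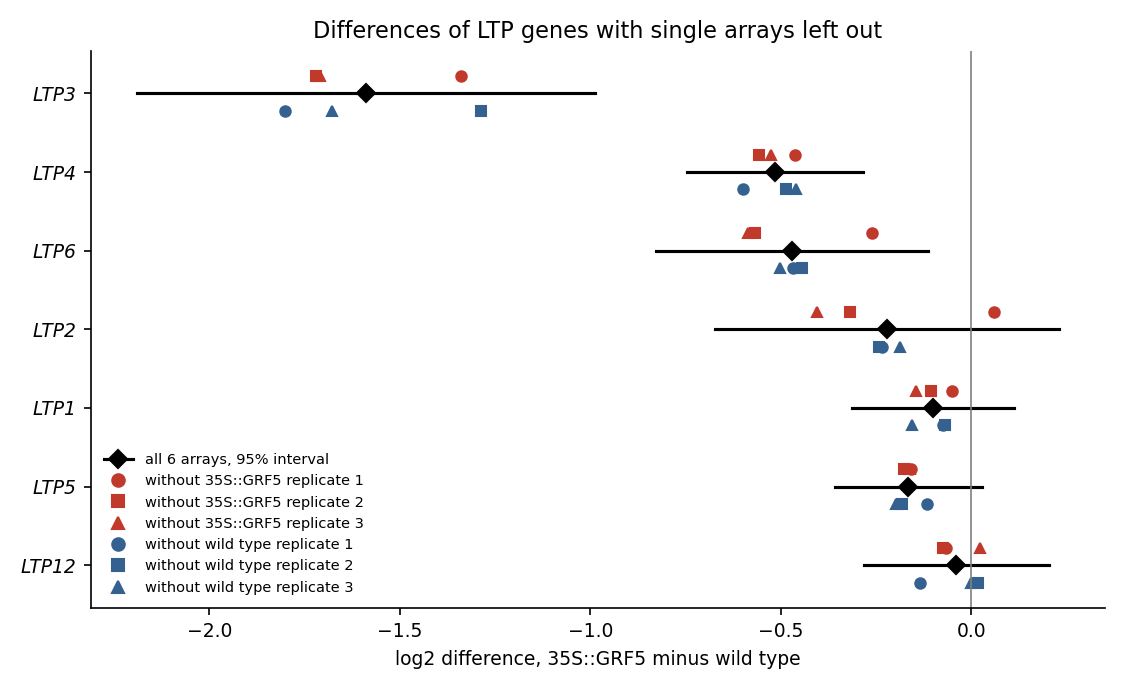
Log2 difference, 35S::GRF5 minus wild type, of each LTP gene. Black diamonds and lines give the value from all 6 arrays with its 95% interval, red symbols the value without an array of 35S::GRF5 and blue symbols the value without an array of wild type. LTP3 stays between -1.80 and -1.29, LTP4 between -0.60 and -0.46 and LTP6 between -0.59 and -0.26, while LTP2 is at 0.06 without 35S::GRF5 replicate 1 and LTP12 lies on both sides of 0.

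Without any single array, LTP3, LTP4, LTP6, LTP5 and LTP1 kept a negative difference. The groups of LTP3, LTP4, LTP5 and LTP6 did not overlap, so for these genes the sign could not change. LTP3 ranged from -1.80 to -1.29, LTP4 from -0.60 to -0.46, LTP6 from -0.59 to -0.26, LTP5 from -0.20 to -0.12 and LTP1 from -0.16 to -0.05. In each of the 6 fits that left out an array, limma called 0 of the 7 members, and 3 had an unadjusted p under 0.05, as had 11.1% to 16.2% of all loci. Of the 20777 loci, those 6 fits called 6 to 99 higher and 11 to 87 lower. With each array centred on its median, 2 members were called, LTP3 and LTP4, beside 45 loci called higher and 126 lower. LTP3 was not called with trend and robust estimation of the variance, where 116 loci were called higher and 136 lower.

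Within the groups the members were compared array by array. In 35S::GRF5 replicate 1, 6 of the 7 genes had the lowest value of their group, all but LTP12, where 34.8% of all loci did. The deviation of that array from its group mean was -0.56 for LTP2, -0.50 for LTP3 and -0.42 for LTP6, but only -0.10 for LTP1, -0.10 for LTP4 and -0.01 for LTP5. Over all loci the same array had the largest root mean square deviation of the 6, at 0.162, against 0.101 to 0.138 in the others. Over the 7 members it was 0.332, against 0.104 to 0.236. In wild type no array was the lowest of its group for more than 3 of the 7 genes. LTP3 was 0.60 above its group mean in replicate 2 and 0.42 below it in replicate 1, while LTP2 and LTP6 deviated by at most 0.07 in any wild-type array.

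**Figure D3:**
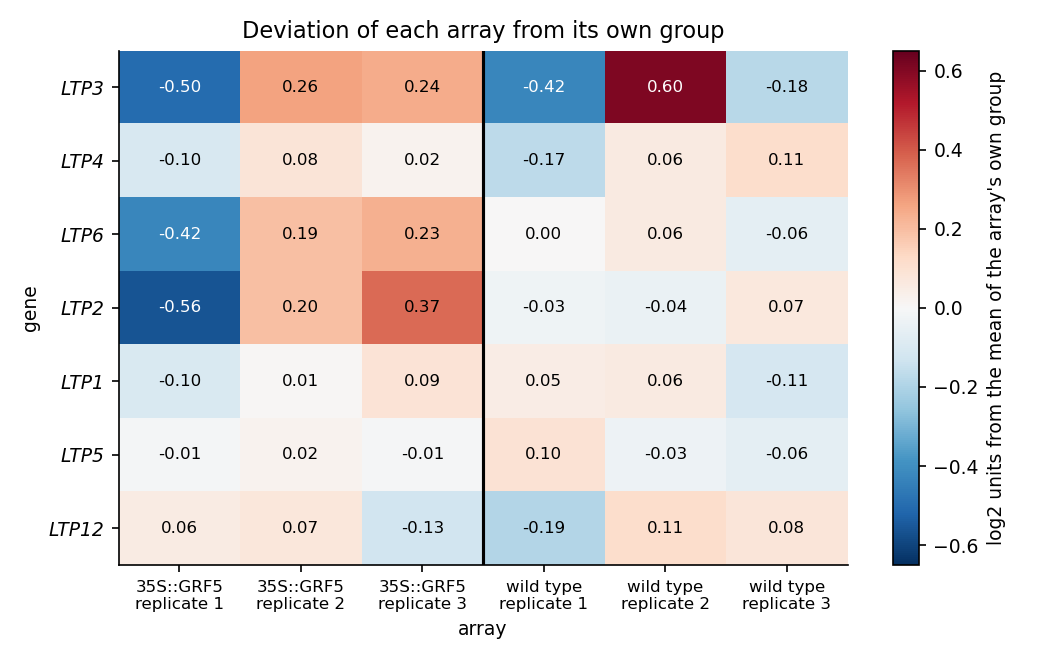
Deviation, in log2 units, of each array from the mean of its own group for the 7 LTP genes, with the 35S::GRF5 arrays on the left and the wild-type arrays on the right. LTP2, LTP3 and LTP6 share negative values of -0.56, -0.50 and -0.42 in 35S::GRF5 replicate 1, and the highest value is 0.60 for LTP3 in wild type replicate 2.

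Likeness between profiles was measured as the root mean square difference over the 6 arrays between values centred on each gene's own mean. This measure rises with the size of the changes and is a description. Among the 21 pairs of members the values ran from 0.08 log2 units for LTP1 with LTP5 to 0.86 for LTP3 with LTP12. LTP2 and LTP6 came next after LTP1 and LTP5, at 0.16. Adjacent genes were not the closest pairs: LTP5 and LTP12 were at 0.17, LTP1 and LTP2 at 0.26 and LTP3 and LTP4 at 0.64. The 5 loci outside the family list nearest to LTP3 were the cytochrome P450 gene CYP81D11 (0.35), the beta-glucosidase gene BGLU28 (0.37), the isochorismate synthase gene ICS2 (0.42), AT4G01390 (0.42) and the cation exchanger gene CAX7 (0.43). Of BGLU28, the arrays read 5.27, 5.67 and 5.67 log2 units in 35S::GRF5 and 6.78, 6.89 and 6.38 in wild type. Of ICS2, they read 5.98, 6.28 and 6.21 in 35S::GRF5 and 6.85, 7.31 and 7.03 in wild type. In both genes, as in LTP3, replicate 2 was the highest wild-type array, but in CYP81D11 and CAX7 it was replicate 1 and in AT4G01390 replicate 3. All 5 were picked for likeness over these same arrays, so what they share with LTP3 is partly fixed by the choice. LTP6 was at rank 117 and LTP4 at rank 128 of 20776 loci in nearness to LTP3.

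Other lipid transfer and related proteins named in the reference table gave 15 measured genes, of which 13 had a negative and 2 a positive difference. Of all loci, 43.8% had a negative difference. Most listed relatives were left out because the reference table does not give their listed name. Left out were 7 of 8 further type I, 11 of 12 type II, 9 of 18 GPI-anchored and 13 of 17 proline-rich entries. The 15 genes do not stand for the wider family. The median difference of the 15 was -0.21, beside 0.02 over all loci. In limma's fit over all loci 0 of the 15 were called, beside 0.77% of all loci. At an unadjusted p under 0.05 there were 3 among 9 GPI-anchored LTPs, which are tethered to the outer face of the plasma membrane, 1 among 4 proline-rich proteins of the same superfamily, and the single gene DIR1. Over all loci 3212, or 15.5%, had such a p. LTPG1, which takes part in wax export to the stem and leaf surface, read 10.6, 10.7 and 10.8 log2 units in 35S::GRF5, against 11.1, 11.0 and 10.9 in wild type. Its groups did not overlap, and its difference was -0.30 (adjusted p = 0.16, limma). LTPG5 differed by -0.47 (adjusted p = 0.135) and DIR1, which acts in systemic acquired resistance, by -0.25 (adjusted p = 0.238), again with groups that did not overlap. LTP7, the only further type I LTP named there, differed by -0.06 (adjusted p = 0.81). CWLP, a linker protein of cell wall and plasma membrane, went the other way, with 11.3, 11.0 and 10.9 log2 units in 35S::GRF5 against 10.4, 10.6 and 10.6 in wild type. Its difference was 0.52 (adjusted p = 0.0667). It passed with trend and robust estimation (0.0216), with array weights (0.0403) and over loci above the median of mean level (0.0484).

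**Figure D4:**
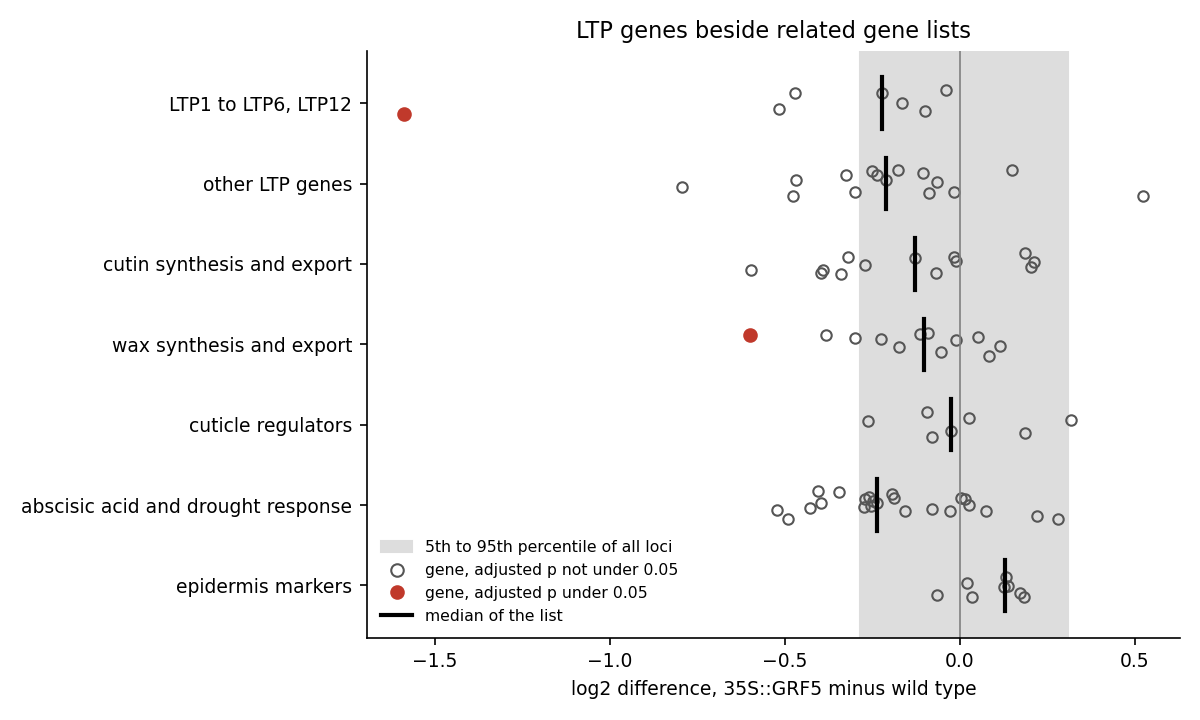
Log2 difference, 35S::GRF5 minus wild type, of each measured gene in 7 lists. Filled red circles passed limma's adjusted p of 0.05 and open circles did not, black bars are list medians, and the grey band spans the 5th to 95th percentile of all loci, from -0.29 to 0.31. The LTP genes have a median of -0.22, the abscisic acid and drought list of -0.24 and the epidermis markers of 0.13.

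Cuticle genes were examined because LTPs are linked to the cuticle. Of 12 wax synthesis and export genes, 1 was called lower, KCS1, a condensing enzyme that elongates fatty acids for wax. KCS1 read 9.16, 9.17 and 9.27 log2 units in 35S::GRF5 and 9.998, 9.69 and 9.72 in wild type. The groups did not overlap, and the difference was -0.60 (-0.83 to -0.37; adjusted p = 0.0366, limma over all loci). It missed the threshold in every fit without a single array (adjusted p 0.0647 to 0.154) and in the fit with a replicate block (0.0735). The wax list had 9 negative differences and a median of -0.10, and 4 of its genes had an unadjusted p under 0.05. Of 13 cutin synthesis and export genes 0 were called by limma and 6 had an unadjusted p under 0.05. The cutin list had 10 negative differences and a median of -0.13. Of all loci, 43.8% had a negative difference, 15.5% an unadjusted p under 0.05 and 0.77% an adjusted p under 0.05. CYP86A4, a fatty acid hydroxylase of cutin synthesis, differed by -0.60 (adjusted p = 0.133), and passed without 35S::GRF5 replicate 1 (0.0484). DCR, an acyltransferase of cutin synthesis, differed by -0.40 (adjusted p = 0.134).

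Among 7 measured regulators of cuticle genes, 0 were called by limma, 1 had an unadjusted p under 0.05 and the median difference was -0.02. Of all loci, 15.5% had an unadjusted p under 0.05. MYB30 differed by 0.32 (adjusted p = 0.218) and MYB16 by 0.19 (adjusted p = 0.383), with 35S::GRF5 arrays above all wild-type arrays in both. MYB96, named here because it is known to act on LTP3, was chosen after its values were seen. It read 6.36, 5.92 and 6.004 log2 units in 35S::GRF5 and 5.82, 6.01 and 6.68 in wild type, with a difference of -0.08 (-0.54 to 0.38). Its groups overlapped, and the wild-type array with the highest LTP3 value, replicate 2, was not the one with the highest MYB96 value. A part of MYB96 in the LTP3 difference was not tested.

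Of 23 measured genes of the abscisic acid and drought response, 0 were called by limma and 7 had an unadjusted p under 0.05. The list had 17 negative differences and a median of -0.24, and the groups did not overlap, with 35S::GRF5 lower, for 9 genes. Beside these counts, 15.5% of all loci had an unadjusted p under 0.05 and 8.45% did not overlap in that direction. RAB18, a dehydrin induced by abscisic acid, read 6.55, 6.84 and 6.67 log2 units in 35S::GRF5 and 6.96, 7.36 and 7.03 in wild type, a difference of -0.43 (adjusted p = 0.154). ABF3, a transcription factor of abscisic acid signalling, differed by -0.41 (adjusted p = 0.157). Wild type replicate 2, the array with the highest LTP3 value, also had the highest mean of this list. That mean was 8.16 there, against 7.68, 7.74 and 7.80 in the 35S::GRF5 arrays and 7.77 and 7.82 in the other wild-type arrays. Without that array the list had 15 negative differences and a median of -0.13, and LTP3 differed by -1.29. The part of this response in the LTP3 values was not tested.

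RNA of the vegetative part mixes many cell types, and in such a sample fewer cells of a type and less RNA per cell cannot be told apart. The 8 epidermis markers, among them ATML1 and PDF1, were all measured, and 7 had positive differences, as had 11682 of the 20777 loci. The mean of these markers per array was 8.999 to 9.05 in 35S::GRF5 and 8.84 to 8.98 in wild type. Of these markers, 0 were called by limma or had an unadjusted p under 0.05. The median difference was 0.13, and 0.03 without wild type replicate 3. With each array centred on its median, 3 of the 8 markers had negative differences and the median was 0.09. With quantile normalization 2 of the 8 were negative, and the median was again 0.09. Of 4 guard cell and stomatal lineage markers, 1 was called higher, TMM (0.64, adjusted p = 0.031, limma), as were 0.284% of all loci. FAMA, KAT1 and MYB60 had differences of -0.32, -0.25 and -0.12 that did not pass. The list mean overlapped between the groups, at 6.94 to 7.02 in 35S::GRF5 and 6.69 to 7.22 in wild type. TMM missed the threshold without 35S::GRF5 replicate 2 (0.0992) or 3 (0.0891) or without wild type replicate 1 (0.145) or 3 (0.0961). The list means of 4 trichome, 6 vascular and 5 root markers overlapped between the groups. Of these 15, 0 were called by limma and 5 had an unadjusted p under 0.05, as had 15.5% of all loci. The 4 mesophyll markers listed were not in the table used here.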

How the data were processed

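Per the submitters' processing notes the authors used RMA (version not stated), and the deposited values are on a log2 scale. The table has 1 row per locus code, and how probes were assigned to loci is not stated in the labels. Groups were compared on all 20777 loci with limma (version 3.58.1, R version 4.3.3; lmFit, then eBayes; two-sided tests, Benjamini-Hochberg adjustment over all loci, threshold 0.05). Differences are 35S::GRF5 minus wild type, and intervals are 95% intervals from that fit. Precision is limited by the number of arrays, and the median half-width of an interval was 0.232 log2 units. All sample titles carry the same experiment number, and the labels give no batch. p-values measure only the spread between these samples.

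The members and gene lists were chosen with earlier results of these data known. Of 164 listed entries, 114 were used and 9 were not measured. The other 41 were left out because the reference table (TAIR10.1, names and neighbours only) does not give the listed name. Nearly all of these 41 were lipid transfer or related proteins. The text names all members, GRF5, called list genes or otherwise up to 2 with the smallest p in the LTP, cuticle and abscisic acid lists, and the 5 loci most like LTP3. AZI1, MYB96 and the markers ATML1, PDF1, FAMA, KAT1 and MYB60 were named in addition, after their values were seen. The fit was tested on simulated data. A planned comparison of member sequences was not run. Alternatives were a replicate block, 2 filters on low values, median centring, quantile normalization, trend and robust estimation, array weights and leaving out each array. List medians without each array, and list results with median centring and quantile normalization, were added after the data were seen.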

Additional observations from a re-analysis of the deposited data

How the results depend on the processing

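Loci called higher numbered 59 and loci called lower 101. Higher calls were 36 with the replicate number as a block, 116 with trend and robust estimation and 134 with array weights, and 6 to 99 without single arrays. Lower calls were 160 with array weights and 11 to 87 without single arrays. Centring on medians gave 45 higher and 126 lower. The LTP genes called lower numbered 2 with centring, 0 with trend and robust estimation and 0 to 0 without single arrays. They numbered 0 over loci above the median of mean level, where LTP3, LTP4 and LTP12 were not in the fit. That fit called 75 loci higher and 94 lower. At an unadjusted p under 0.05, 4 members passed with trend and robust estimation, beside 15.3% of all loci. The number was also 4 with centring, beside 14.9%, and with quantile normalization, beside 14.7%. Over loci above the median 1 member passed, beside 19.4% of the loci in that fit. Other listed genes called numbered 2, and 1 with the block, 4 with array weights and 0 to 2 without single arrays. At an unadjusted p under 0.05 there were 26 to 37 of these 107 genes without single arrays, beside 11.1% to 16.2% of all loci. Same-numbered arrays did not deviate together across loci (correlations of -0.05, 0.06 and -0.11). These correlations cannot show whether such samples were grown or processed together. For LTP3 the deviations in 35S::GRF5 and wild type were -0.50 and -0.42 in replicate 1 and 0.26 and 0.60 in replicate 2. In replicate 3 they were 0.24 and -0.18. LTP12 was also not in the fit over loci above the 25th percentile. The replicate block, the filters on low values and trend and robust estimation cannot change a difference in this design. Kept signs there carry no information. In the other alternatives the differences of the members kept their sign, with these exceptions. LTP2 was at 0.06 without 35S::GRF5 replicate 1, and LTP12 at 0.02 without 35S::GRF5 replicate 3 or wild type replicate 2. Signal over background could not be judged from these values, which limits LTP12, LTP3 and LTP4 most.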

Other observations

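Among the proline-rich relatives of the LTPs, EARLI1 and AZI1, both known from defence and stress responses, had their highest values in wild type replicate 1. EARLI1 read 3.71, 3.67 and 3.62 log2 units in 35S::GRF5 replicates 1 to 3, against 5.57, 3.95 and 3.87 in wild type. AZI1 read 6.20, 5.78 and 6.10 in 35S::GRF5 replicates 1 to 3, against 7.24, 5.89 and 6.39 in wild type. LTP3 had its lowest wild-type value in that same array. Without it, EARLI1 differed by -0.24, beside -0.79 over all arrays.

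The 10 touch response genes measured had a mean of 7.20 log2 units in wild type replicate 3, against 5.69 to 5.85 in the 35S::GRF5 arrays and 5.46 to 5.78 in the other wild-type arrays. LTP3 and LTP6 without that array differed by -1.68 and -0.50, against -1.59 and -0.47 over all arrays. LTP1 and LTP5 also had larger differences without it. LTP4, LTP2 and LTP12 had smaller ones, at -0.46, -0.19 and -0.0008, against -0.52, -0.22 and -0.04 over all arrays. A part of the touch response in the LTP values was not tested.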
